A study of Mus musculus with 12 samples.

Results

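The nuclear-encoded subunits of the mitochondrial respiratory chain were examined in HL-1 cells whose Wdr62 gene was targeted. They were taken as 41 gene symbols, by the complex they belong to: 15 of complex I, 4 of complex II, 6 of complex III, cytochrome c, 10 of complex IV and 5 of complex V. All 41 were among the 23184 symbols of the deposited table, and all 41 passed the filter of a mean of at least 1 TPM (a transcript level scaled to transcript length and to the library's total) that left 11774 genes to test. HL-1 is a mouse line labelled as a cardiac muscle cell line and derived from atrial heart muscle. Every group was grown with 10% fetal bovine serum. Control cells (CON, genotype WT) received viruses made with the empty pCDH and lentiCRISPRv2 vectors. Knockdown cells (KD) received virus with a CRISPR guide against Wdr62. For re-expression (RE), KD cells were infected again, with pCDH-WDR62-WT-flag virus, which carries the flag-tagged wild-type protein. The labels mention pCDH in CON and RE but leave it out of KD, so a response to it cannot be told apart from a response to WDR62 in KD against CON or RE against KD. In the treatment labels of KD and RE, the number that ends the nuclease's or the gene's name goes up by 1 from replicate to replicate, whereas genotype and protocol name WDR62 alone, so the groups follow title and genotype. There were 4 libraries in each of the 3 groups, and the labels do not say whether they came from separate cultures or from 1 infected line, so the p-values reflect the spread among libraries of a group, and that spread may be technical.

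The respiratory chain is a set of large enzymes in the inner mitochondrial membrane. Complexes I and II pass electrons from NADH and succinate to ubiquinone, complex III passes them on to cytochrome c, and complex IV hands them to oxygen. The protons pumped on the way drive complex V, the ATP synthase. Heart muscle depends on this chain for most of its ATP. Its proteins come from the mitochondrial genome and, for the majority of subunits, from nuclear genes, of which a subset is described here. Many of the nuclear genes have short transcripts, a property that matters below.

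Wdr62, which encodes a scaffold protein of centrosomes and spindle poles, served as the check of the labels. It stood at 7.45, 6.61, 6.50 and 3.38 TPM in CON 1 to CON 4 and at 1.40, 0.944, 1.37 and 0.881 TPM in KD 1 to KD 4, so the groups did not overlap. The difference on the log2(TPM + 1) scale was -1.67 ± 0.25 (SE, n = 4 against 4; limma adjusted p = 0.000921; exact two-sided permutation p = 0.0286, the smallest that 4 against 4 can give). The RE libraries had 1.47, 0.772, 0.826 and 1.99 TPM, a difference from KD of 0.05 ± 0.25 (adjusted p = 0.895; exact permutation p = 0.886). No rise of Wdr62 was therefore detectable in the libraries labelled RE, and directions drawn from RE rest on its label. Whether a transcript from the introduced construct would be counted for Wdr62 in this table was not tested.

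The labelled cell type did not show in its markers. Of 15 heart muscle genes, 9 stayed under 1 TPM in every library, and Actc1, Actn2 and Myl7 were listed at 0 in all 12, while Tnnt2, Nkx2-5 and Gata4 were present. The summed level of the heart list was 30.3 to 47.4 TPM in CON, 37.6 to 46.7 in KD and 39.5 to 66.1 in RE. Fibroblast markers summed to 2751 to 4260 TPM in CON, 2947 to 4247 in KD and 1559 to 2524 in RE. Col3a1 carried most of that sum, at 1189.9 to 3455 TPM over the 12 libraries, while Lum was at 0 throughout and Thy1 under 1 TPM in every library. Smooth muscle markers (mainly Acta2) summed to 493 to 1087, 699 to 1120 and 277 to 1482. Skeletal muscle markers summed to 26.7 to 45.8 TPM in CON, 9.93 to 12.1 in KD and 12.3 to 18.2 in RE. The 4 endothelial markers summed to at most 0.746 TPM, and the macrophage markers, with Adgre1, Csf1r and Ptprc under 1 TPM everywhere, to 4.35 to 13.6. The part of these marker differences in the subunit results was not tested, and in bulk RNA fewer cells of a type and less RNA per cell cannot be told apart.

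In CON 4, RE 1 and RE 3, levels departed from those of the other libraries of the same group along transcript length. Genes with transcripts of 3000 bases or more lay, in the median, -0.68, -0.55 and -0.85 log2 units from the mean of the 12 libraries there, and genes under 1000 bases 0.41, 0.29 and 0.44 units from it. The subunits followed the same line. The 19 subunits with transcripts under 1000 bases were all higher in CON 4 than the mean of the other CON libraries (median difference 0.74 log2 units), whereas of the 22 longer ones 11 were higher (median 0.02). In RE 3, 18 of the 19 short subunits and 7 of the 22 longer ones lay above the other RE libraries, with medians of 0.52 and -0.19. In RE 1 the counts were 17 of 19 and 14 of 22, with medians of 0.32 and 0.09. Differences along length were not confined to these 3 libraries. In the median, genes of 3000 bases or more lay at 0.54, 0.51 and 0.36 log2 units in CON 1 to CON 3. In KD 1 to KD 4 they lay at 0.43, 0.40, -0.12 and 0.08. The values in RE 2 and RE 4 were -0.05 and -0.04. The main counts and several results below are also given without the 3 libraries, or with a correction for transcript length. Leaving out the 3 libraries does not by itself remove differences along length between the groups.

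**Figure D1:**
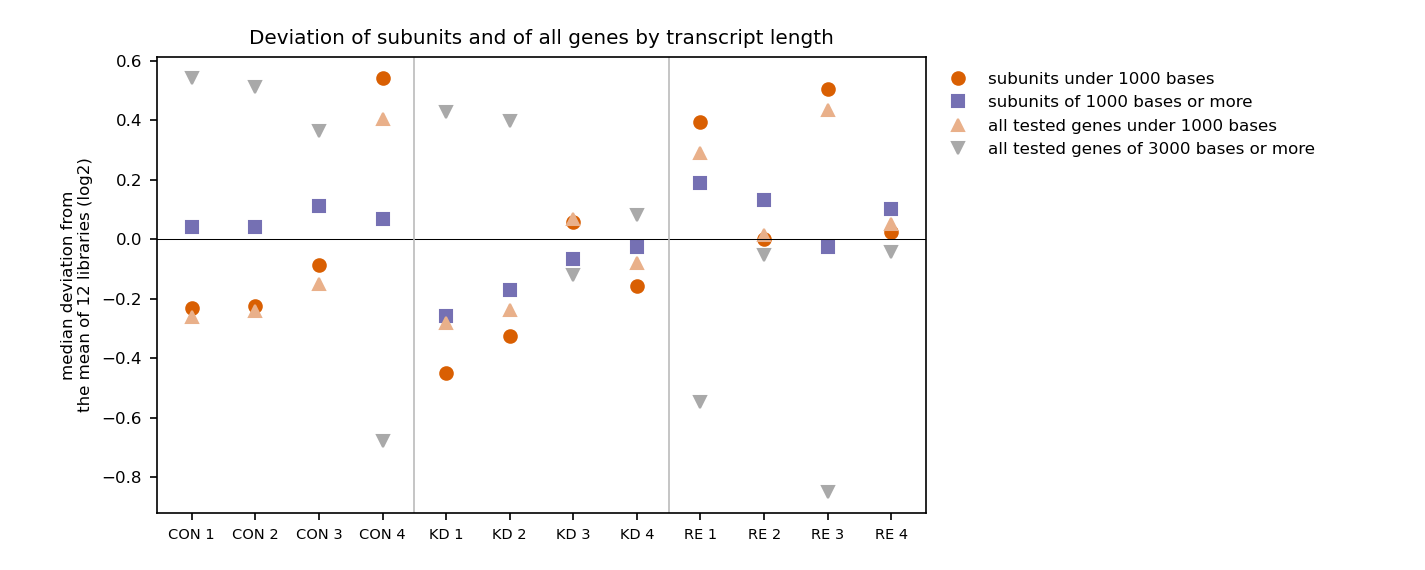
Median deviation from the mean of the 12 libraries (log2 units) for the subunits with transcripts under 1000 bases, the longer subunits, all tested genes under 1000 bases and all tested genes of 3000 bases or more; each mark is a median over genes in 1 library and vertical lines part the groups. Short subunits and short genes stand highest in CON 4 and RE 3, where genes of 3000 bases or more stand lowest.

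Together the 41 genes held 1.70% to 2.75% of all TPM. Their share was 1.94%, 1.96%, 2.12% and 2.75% in CON, 1.70%, 1.78%, 2.06% and 1.95% in KD and 2.48%, 2.21%, 2.58% and 2.13% in RE. The highest share was in CON 4, and the KD libraries overlapped CON 1 to CON 3 but lay below all 4 RE libraries. Levels per transcript length ranged widely: in CON, Atp5b, the catalytic beta subunit of ATP synthase, led with 2718 ± 455 TPM (SD, n = 4), and Cox7c, a small subunit of complex IV, was lowest with 7.61 ± 1.85 TPM. In this order 39 of the 40 neighbouring pairs overlapped in their CON ranges, the exception being Sdhd (178.7 to 189.8 TPM) above Ndufa9 (149.4 to 155.2 TPM).

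The low end of the order goes with shared sequence in some cases. Cox7c, at 7.61 TPM, shares 53.0% of the 50-base words of its transcripts with 3 other genes, all pseudogenes. Cox5b, at 11.3 TPM, shares 25.9% with 1 other gene that is not listed as a pseudogene. In other cases it does not: Cox7a1, at 25.5 TPM, shares none, and Ndufb9 and Cox6c, at 977 and 1888.5 TPM, share 23.4% and 21.2%. Shares were 43.4% for Uqcrb, 39.7% for Ndufs3, 34.0% for Atp5o, 32.1% for Cox5a and 28.5% for Cycs. How reads from such words were assigned is not stated in the sources used here, so the levels of these genes are uncertain, while 18 of the 41 subunits shared no such word. In addition 10 subunits overlap a gene on the opposite strand, among them Ndufb5 with Mrpl47 and Ndufs1 with Eef1b2, and reads of such partners can be told apart only with strand information.

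**Figure D2:**
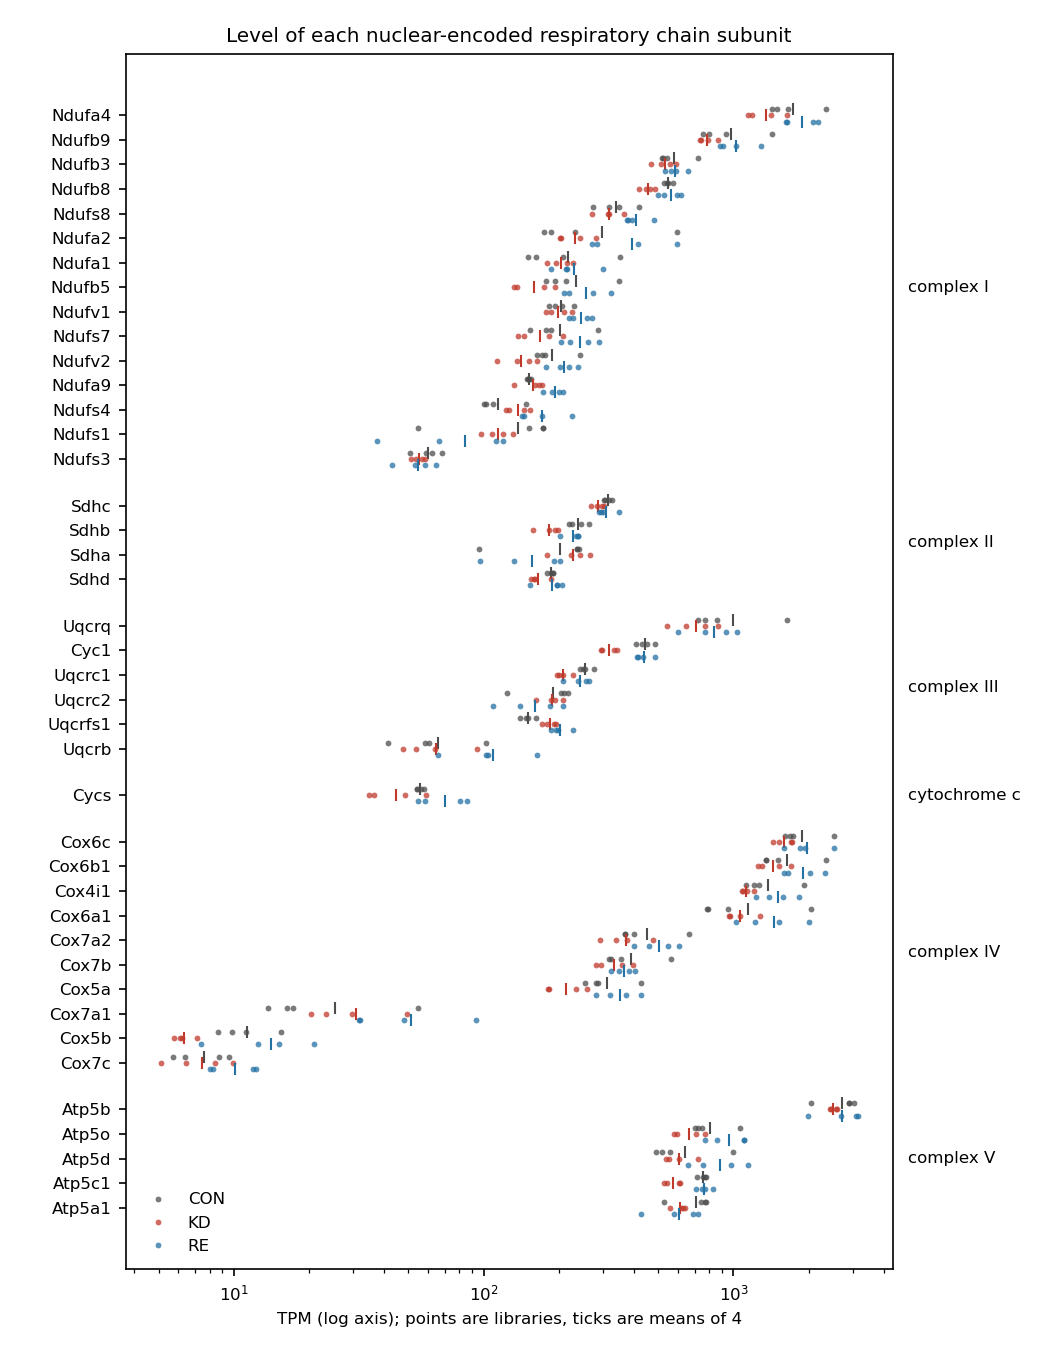
Level of each of the 41 subunits in TPM (log axis) by complex; points are the 12 libraries, coloured by group, and ticks are group means of 4 libraries. Levels run from 5.10 TPM for Cox7c to 3141 TPM for Atp5b.

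KD against CON asked what targeting Wdr62 did. Most subunit transcripts were slightly lower in KD, but few by more than the spread between libraries. Of the 41 subunits 2 fell and 0 rose by limma (adjusted p below 0.05), where 3.61% of all tested genes fell and 6.6% rose. The 2 were Cyc1, the haem-carrying cytochrome c1 of complex III, and Atp5c1, the gamma subunit that forms the rotating stalk of ATP synthase. At an unadjusted p under 0.05 there were 9 lower and 1 higher, where 10.2% of tested genes were lower and 13.6% higher. The log2 fold change was below 0 for 33 of the 41, and for 6033 of the 11774 tested genes. The subunits had a median of -0.17, beside -0.01 over all tested genes and -0.09 over tested genes under 1000 bases. Without CON 4, 27 of the 41 were below 0, with a median of -0.08, beside -0.16 over all tested genes.

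Cyc1 (chr15:76343523-76346260, plus strand) had 431, 408, 449.8 and 486 TPM in CON and 298, 296, 342 and 333 TPM in KD. The highest KD value was under the lowest CON value. The difference was -0.48 ± 0.11 log2 units (adjusted p = 0.0132). Atp5c1 (chr2:10056016-10080510, minus strand) had 717, 757, 768 and 774 TPM in CON and 528, 539.6, 612 and 608 in KD, again without overlap, a difference of -0.40 ± 0.10 (adjusted p = 0.0238). With any 1 library left out, the differences lay between -0.52 and -0.44 for Cyc1 and between -0.43 and -0.36 for Atp5c1, but not every call held: without KD 2 the adjusted p of Cyc1 was 0.0552, and that of Atp5c1 passed 0.05 without CON 1, CON 2, CON 3, KD 1 or KD 2, reaching 0.0902. With the libraries scaled by the median of ratios neither was called (adjusted p = 0.199 and 0.254). Without CON 4, RE 1 and RE 3 they differed by -0.44 (adjusted p = 0.00362) and -0.39 (adjusted p = 0.00721).

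Neither gene has an unusually short transcript (1520 and 1451 bases), and neither stood apart in CON 4. Cyc1 shares no 50-base word with another gene, and Atp5c1 shares 3.72% of its words with 3 pseudogenes. In RE, Cyc1 returned values of 487, 414, 435 and 412 TPM and Atp5c1 values of 825, 706, 746 and 767 TPM. All RE values of both genes were above all KD values and overlapped CON. The differences from KD were 0.46 ± 0.11 for Cyc1 (adjusted p = 0.0653) and 0.41 ± 0.10 for Atp5c1 (adjusted p = 0.0695), which miss the threshold. With the length correction they passed it (0.45 and 0.38, adjusted p = 0.0346 for both), and they were then the 2 subunits called in RE against KD. The KD libraries are shared by both comparisons, so a chance low in KD would give both differences.

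Uqcrfs1, the Rieske iron-sulfur protein of complex III (chr13:30540308-30545362, minus strand), went the other way. It had 140.2, 148, 151 and 162 TPM in CON, 179, 172, 194 and 192 in KD, and 199, 227, 185 and 194 in RE. CON was below both other groups without overlap, and KD and RE overlapped. The difference was 0.29 ± 0.11 log2 units for KD against CON (adjusted p = 0.115) and 0.42 ± 0.11 for RE against CON (adjusted p = 0.0381). Uqcrfs1 thus rose in RE against CON, the 1 subunit of the 41 to do so, where 2.7% of all tested genes rose and 3.63% fell; 0 subunits fell. At an unadjusted p under 0.05, 5 were higher and 0 lower, where 8.22% of tested genes were higher and 20.2% lower. That call was lost in 9 of the 12 fits that left out 1 library (adjusted p up to 0.135) and when CON and RE were fitted alone (0.143). Without CON 4, RE 1 and RE 3 its differences were 0.33 for KD against CON (adjusted p = 0.0172) and 0.52 for RE against CON (adjusted p = 0.00968).

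Promoter sequence was compared because the nuclear respiratory factor NRF1 and the ETS-family factor GABP are known to bind upstream of many respiratory chain genes. RefSeq's table (build GRCm38.p6) had an upstream entry for 30 of the 41 subunits. The 250 bases before the first listed start were searched on both strands for the NRF1 palindrome (GCGCA and GCGC with any 1 base between them), for its core CGCATGCG, which lies within the palindrome where N is T and was added after the sequences had been looked at, and for the ETS site CCGGAAG. The palindrome was in 3 of 30 subunit windows (10%) and in 3.86% of all 27025 windows, the core in 2 (6.67%) and 1.58%, and the ETS site in 4 (13.3%) and 7.05%. At least 1 of them was in 6 subunit windows (20%) and in 11% of all. Cox6a1, a small complex IV subunit, held all 3 motifs. Cycs, cytochrome c, held the core alone, and the called genes Uqcrfs1 and Atp5c1 held none, which says only that these letters are not in the windows. Cyc1 has no entry. The windows of these 4 genes are printed 5′ to 3′ on the gene's strand with motifs in capitals, leaving out bases that lie in an exon of a protein-coding gene. They span chr5:115348982-115349208 for Cox6a1, chr6:50566570-50566819 for Cycs, chr13:30545363-30545566 for Uqcrfs1 and chr2:10080511-10080592 for Atp5c1, all on the minus strand.
Cox6a1: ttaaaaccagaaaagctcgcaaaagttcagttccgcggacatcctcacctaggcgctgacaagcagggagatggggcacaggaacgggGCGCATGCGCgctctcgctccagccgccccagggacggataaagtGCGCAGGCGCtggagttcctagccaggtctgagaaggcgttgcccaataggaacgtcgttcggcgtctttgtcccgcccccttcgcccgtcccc
Cycs: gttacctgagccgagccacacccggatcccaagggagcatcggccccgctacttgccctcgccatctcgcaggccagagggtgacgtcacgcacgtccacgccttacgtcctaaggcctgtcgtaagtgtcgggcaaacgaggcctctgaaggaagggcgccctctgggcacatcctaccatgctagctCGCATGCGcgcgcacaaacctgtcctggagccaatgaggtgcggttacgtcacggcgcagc
Uqcrfs1: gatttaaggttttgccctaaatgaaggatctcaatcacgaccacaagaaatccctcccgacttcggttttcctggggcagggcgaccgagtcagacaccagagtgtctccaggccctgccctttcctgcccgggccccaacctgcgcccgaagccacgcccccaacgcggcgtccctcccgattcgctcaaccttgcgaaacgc
Atp5c1: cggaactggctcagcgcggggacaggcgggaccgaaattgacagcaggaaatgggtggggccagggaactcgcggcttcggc
The capitals mark the palindrome at 162 and 117 bases before the start of Cox6a1, the first of which holds the core, and the core at 61 bases before the start of Cycs. The ETS site of Cox6a1, at 16 bases before its start, lies in a stretch not printed.

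Complex I, the NADH dehydrogenase, had no subunit called in any of the 3 comparisons by limma. At an unadjusted p under 0.05, 3 of its 15 subunits were lower in KD than in CON, where 10.2% of tested genes were, and 8 higher in RE than in KD, where 6.36% were. Its summed level was 5107, 5156, 5721 and 7925 TPM in CON, 4405, 4692, 5660.1 and 5229 in KD, and 7136, 5898, 7265 and 5839 in RE. KD lay below RE in every library and overlapped CON. The median log2 fold change of the 15 was -0.14 for KD against CON and 0.30 for RE against KD.

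Ndufa4, a small subunit first assigned to complex I and since placed with complex IV, was the highest of this list (here and below by the mean over the 12 libraries), with 1496, 1428, 1650.0 and 2353 TPM in CON, 1145, 1190.2, 1636 and 1408 in KD, and 2182, 1641, 2081 and 1617 in RE. KD overlapped both other groups. Ndufs3, an iron-sulfur protein fraction subunit of the peripheral arm, was the lowest, at 50.7 to 68.2 TPM in CON, 51.0 to 58.3 in KD and 43.0 to 64.3 in RE. Its groups overlapped. Ndufb8, an accessory membrane-arm subunit, had 547.6, 529, 570.3 and 543 TPM in CON and 418, 462, 447 and 484 in KD, and so did not overlap, but the difference of -0.27 ± 0.11 did not pass (adjusted p = 0.127).

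Ndufs1, the largest iron-sulfur subunit of complex I, has a transcript of 2661 bases and was low in the 3 libraries that stand apart. It had 173, 172, 152 and 54.4 TPM in CON, 119, 131, 97.8 and 108 in KD, and 66.1, 119.9, 37.4 and 112 in RE. The lowest values are those of CON 4, RE 1 and RE 3. CON 4 lay -1.58 log2 units from the other CON libraries for Ndufs1, but 0.09 for Sdhc and -0.04 for Cycs, whose transcripts are longer (3171 and 3123 bases). The difference of KD from CON was -0.14 ± 0.41 (adjusted p = 0.905) with all libraries and -0.54 (adjusted p = 0.00503) without the 3. Ndufs1 was called in this comparison in 2 of 24 alternative fits, and in neither fit with the length correction.

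Complex II, succinate dehydrogenase, is encoded by nuclear genes alone, and all 4 are in the list. Its sum was 954, 949.8, 1007 and 848 TPM in CON, 827, 889, 855 and 887 in KD, and 862, 988, 744 and 931 in RE. The groups overlapped. Sdhc, a membrane anchor, was the highest at 302.6 to 328 TPM in CON, 268 to 302 in KD and 291 to 349.5 in RE, and Sdhd, the other anchor, the lowest at 179 to 189.8, 155 to 186 and 154 to 205, although in RE the mean of Sdha was lower. Sdhb, the iron-sulfur subunit, had 219, 227, 263 and 246 TPM in CON, 157, 183, 193 and 199 in KD, and 238, 238, 203 and 233 in RE. KD lay below both other groups without overlap. The differences of -0.38 ± 0.12 from CON (adjusted p = 0.0614) and 0.32 ± 0.12 for RE against KD (adjusted p = 0.144) missed the threshold. Sdha, the flavoprotein subunit with a transcript of 2900 bases, had 239.8, 235, 237 and 95.9 TPM in CON, 243, 266, 178 and 225 in KD and 132, 203, 96.6 and 191 in RE, lowest again in CON 4, RE 3 and RE 1 among all 12.

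Complex III, the cytochrome bc1 complex, held 2 of the 3 called genes, Cyc1 and Uqcrfs1, described above. They had opposite signs in KD against CON. The sum over the 6 subunits was 1851, 1780.3, 2014 and 2753 TPM in CON, 1452, 1582, 1858 and 1777 in KD, and 2125, 1949, 2131 and 1734 in RE. The groups overlapped. Uqcrq, a small subunit, was the highest with 768, 718, 859 and 1635 TPM in CON, 544, 645, 866 and 766 in KD and 937, 770.4, 1029 and 602 in RE, with CON 4 far above the other CON libraries. Uqcrb, the ubiquinone-binding small subunit, was the lowest with 41.6 to 102 TPM in CON, 47.6 to 93.7 in KD and 66.0 to 164 in RE. Uqcrc1, a core subunit, had 243 to 276 TPM in CON and 197 to 229 in KD, without overlap, a difference of -0.29 ± 0.11 (adjusted p = 0.123).

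Cycs, the soluble electron carrier between complexes III and IV, had 57.9, 54.2, 56.0 and 54.3 TPM in CON, 34.9, 36.4, 58.6 and 48.6 in KD, and 80.7, 58.4, 54.8 and 85.7 in RE. The CON values were close together, and the KD and RE values spread to either side. The difference was -0.34 ± 0.20 for KD against CON (adjusted p = 0.336) and 0.64 ± 0.20 for RE against KD (adjusted p = 0.108). Its transcript, at 3123 bases, is among the longest of the 41. With the length correction and all libraries the second difference was 1.01, and it was not called. Cycs lay -0.04, 0.19 and -0.36 log2 units from the other libraries of its group in CON 4, RE 1 and RE 3. Whether the correction suits its listed length was not tested. Its shared words, 28.5%, occur in 76 other genes, 10 of them pseudogenes.

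Complex IV, cytochrome c oxidase, had 0 subunits called in any of the 3 comparisons by limma, with 2 lower in KD against CON and 3 higher in RE against KD at an unadjusted p under 0.05, where 10.2% and 6.36% of tested genes were. The sum was 5834, 6093, 6472 and 10556 TPM in CON, 5539, 5729.6, 7063 and 6443 in KD, and 8438, 7109, 10234 and 6691 in RE. CON 4 and RE 3 were far above the rest. Cox6c, a small structural subunit, was the highest with 1611, 1735, 1687 and 2521 TPM in CON, 1443, 1526, 1718 and 1693 in KD and 1933, 1839.7, 2519 and 1597 in RE, and its groups overlapped. Cox7c was the lowest, with 8.72, 6.40, 5.72 and 9.61 TPM in CON, 5.10, 6.43, 9.90 and 8.37 in KD, and 8.26, 8.06, 11.9 and 12.2 in RE. Those groups overlapped too, and in KD the mean of Cox5b was lower.

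Cox5b, a zinc-binding subunit, had the largest negative value of the 41 in KD against CON. Its level was 11.1, 8.67, 9.86 and 15.5 TPM in CON, 5.74, 7.15, 6.19 and 6.09 in KD, and 15.1, 7.42, 21.0 and 12.5 in RE. KD did not overlap either group. The differences were -0.73 ± 0.28 for KD against CON (adjusted p = 0.124) and 0.96 ± 0.28 for RE against KD (adjusted p = 0.0955), neither past the threshold.

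Cox7a1 is the heart and skeletal muscle isoform of a complex IV subunit whose form in other tissues is Cox7a2. Cox7a1 had 16.4, 17.3, 13.6 and 54.7 TPM in CON, 20.4, 29.7, 49.5 and 23.5 in KD, and 31.8, 47.9, 93.3 and 32.1 in RE. Apart from CON 4, the CON values were the lowest. The differences from CON were 0.41 ± 0.46 in KD (adjusted p = 0.682) and 1.07 ± 0.46 in RE (adjusted p = 0.160). Without CON 4, RE 1 and RE 3 they were 0.85 (adjusted p = 0.0346) and 1.27 (adjusted p = 0.0205). The transcript of Cox7a1 is short, at 393 bases. With the length correction 0 complex IV subunits rose in KD against CON, both with all libraries and without CON 4. In RE against CON 0 rose with that correction and all libraries, and without CON 4 Cox7a1 alone of complex IV rose. Cox7a1 made up 4.93% of the summed TPM of the pair in CON, 7.48% in KD and 9.01% in RE, with log2 ratios of -4.27 ± 0.50, -3.60 ± 0.31 and -3.40 ± 0.64 (SD, n = 4). Cox7a2 thus prevailed in all libraries. The other tissue isoforms were low: Cox8b and Cox8c were listed at 0 throughout, Cox4i2, Cox6b2 and Cyct stayed at means under 1 TPM in each group, Cox7b2 had means of 2.26, 1.03 and 1.56 TPM and Cox6a2 8.96, 3.67 and 4.82 TPM in CON, KD and RE.

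Complex V had its sum at 5593, 5608, 5899.9 and 5406 TPM in CON, 4704, 4861, 5107 and 5153 in KD, and 6196, 6094, 5408 and 6055 in RE. It was the 1 complex of several subunits whose KD libraries all lay below all CON and all RE libraries. Atp5b was the highest with 2888, 2895, 3047 and 2044 TPM in CON, 2424, 2563, 2446 and 2589.5 in KD and 2704, 3141, 1984 and 3079.7 in RE. The low values are those of CON 4 and RE 3. Atp5a1, the alpha subunit and the lowest of the 5 by the mean over the 12 libraries, had 769.99, 744, 779 and 526 TPM in CON, 618, 627, 559 and 637 in KD and 578, 719, 428 and 686 in RE, with CON 4 and RE 3 again lowest in their groups. Without CON 4, RE 1 and RE 3, Atp5a1, Atp5b and Atp5c1 all fell in KD against CON, where 25.1% of all tested genes fell. They fell by 0.33, 0.23 and 0.39 on the log2 scale (adjusted p = 0.0104, 0.0422 and 0.00721). With the length correction only 1 of the 5 subunits fell, both with all libraries and without CON 4, where 10.8% and 17% of all tested genes fell. By group means Atp5d was lowest in CON and Atp5c1 in KD.

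**Figure D3:**
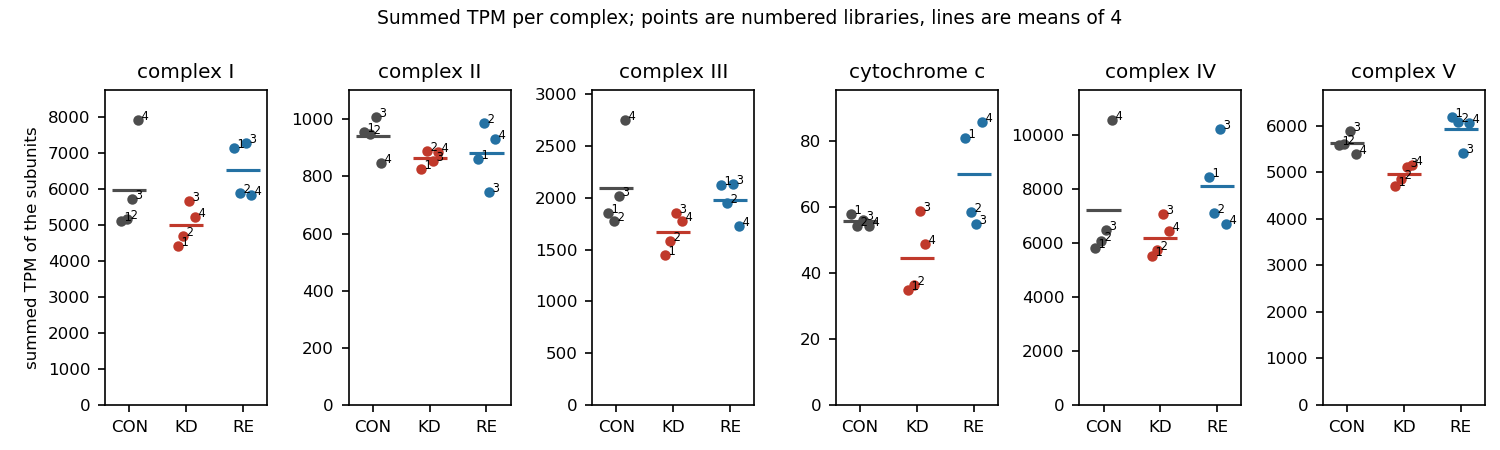
Summed TPM of the subunits of each complex (y axis from 0); points are libraries numbered within their group and lines are means of 4. In complex V all 4 KD sums, 4704 to 5153 TPM, lie under the CON and RE sums, while in complexes I, III and IV the highest CON sum is that of CON 4.

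Across complexes the medians of KD against CON were -0.14 for complex I, -0.15 for complex II, -0.14 for complex III, -0.34 for cytochrome c, -0.21 for complex IV and -0.19 for complex V. In the same order they were -0.06, -0.15, -0.17, -0.35, -0.03 and -0.23 without CON 4, RE 1 and RE 3, and -0.12, -0.16, -0.16, -0.37, -0.17 and -0.22 with the length correction. By ranges alone, 7 subunits were lower in every KD than in every CON library (Ndufb8, Sdhb, Sdhc, Uqcrc1, Cyc1, Cox5b and Atp5c1) and 1 was higher (Uqcrfs1), where 7.02% of tested genes were lower and 11.9% higher in that way. With CON 4, RE 1 and RE 3 removed, 9 subunits fell and 3 rose, where 25.1% of all tested genes fell and 14.2% rose. The 9 were Ndufb8, Ndufs1, Sdhb, Uqcrc1, Cyc1, Cox5b, Atp5a1, Atp5b and Atp5c1, and the 3 were Ndufs4, Uqcrfs1 and Cox7a1. With all libraries and the length correction 10 fell and 1 rose, where 10.8% and 12.1% of tested genes did. The median over all tested genes without the 3 libraries was -0.16, lower than the subunits' -0.08.

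RE against KD compared cells with and without the WDR62 construct. None of the 41 subunits passed the test, 0 in either direction by limma, where 0.187% of tested genes rose and 0.858% fell, though at an unadjusted p under 0.05 there were 18 higher and 0 lower, where 6.36% of tested genes were higher and 21.6% lower. Their values leaned upward: 36 of 41 were above 0, with a median of 0.36, beside -0.29 over all tested genes. Tested genes under 1000 bases, however, had a median of 0.34 and those of 1000 to under 3000 bases -0.11. The short subunits were all above 0, 19 of 19 with a median of 0.45, and the 22 longer ones had a median of 0.22. Of the lists given below, 37 of 38 other subunits and 67 of 76 mitochondrial ribosomal protein genes were also above 0, with medians of 0.44 and 0.39. So were 29 of 46 assembly factors and 10 of 13 carrier and outer membrane genes. Among tricarboxylic acid cycle genes and regulators it was 6 of 17 and 2 of 19. Ranges did not overlap for 13 subunits that were higher and 0 that were lower, where 3.47% of tested genes were higher and 10.8% lower in that way. That share depended on length. Of 915 tested genes under 1000 bases, 118 were higher and 19 lower in that way, beside 6 and 0 of the 19 short subunits. Of 5230 tested genes of 1000 to under 3000 bases, 233 were higher and 482 lower, beside 7 and 0 of the 22 longer subunits.

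The complexes ranked differently once length was corrected for. Medians were 0.30 for complex I, 0.14 for II, 0.22 for III, 0.64 for cytochrome c, 0.41 for IV and 0.41 for V as measured, and 0.25, 0.13, 0.24, 1.01, 0.10 and 0.30 with the correction. Complex IV, in which 9 of 10 transcripts are under 1000 bases, moved the most of the complexes with several subunits. Over the 41 subunits the corrected median was 0.21. Spearman's rho between fold change and transcript length over the 41 subunits, given as a description since the points share the same libraries, was -0.52 here, -0.51 in RE against CON and -0.04 in KD against CON. Over 11339 tested genes with a length it was -0.62, -0.55 and 0.02.

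CON 4 is in neither group but enters the estimate of the spread, which all 12 libraries share. Without CON 4, 13 subunits rose in RE against KD and 0 fell, with 3.85% of all tested genes rising and 19.9% falling. They were Ndufa2, Ndufa4, Ndufb5, Ndufs7, Ndufv2, Cyc1, Cycs, Cox4i1, Cox5a, Cox5b, Atp5c1, Atp5d and Atp5o. With CON 4, RE 1 and RE 3 all left out, 0 were called by limma, 38 of 41 lay above 0 and the median was 0.27, beside -0.10 over all tested genes. Without RE 2 there were 4 rises and without KD 3 there was 1, and with KD and RE fitted alone there were 0 by limma.

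**Figure D4:**
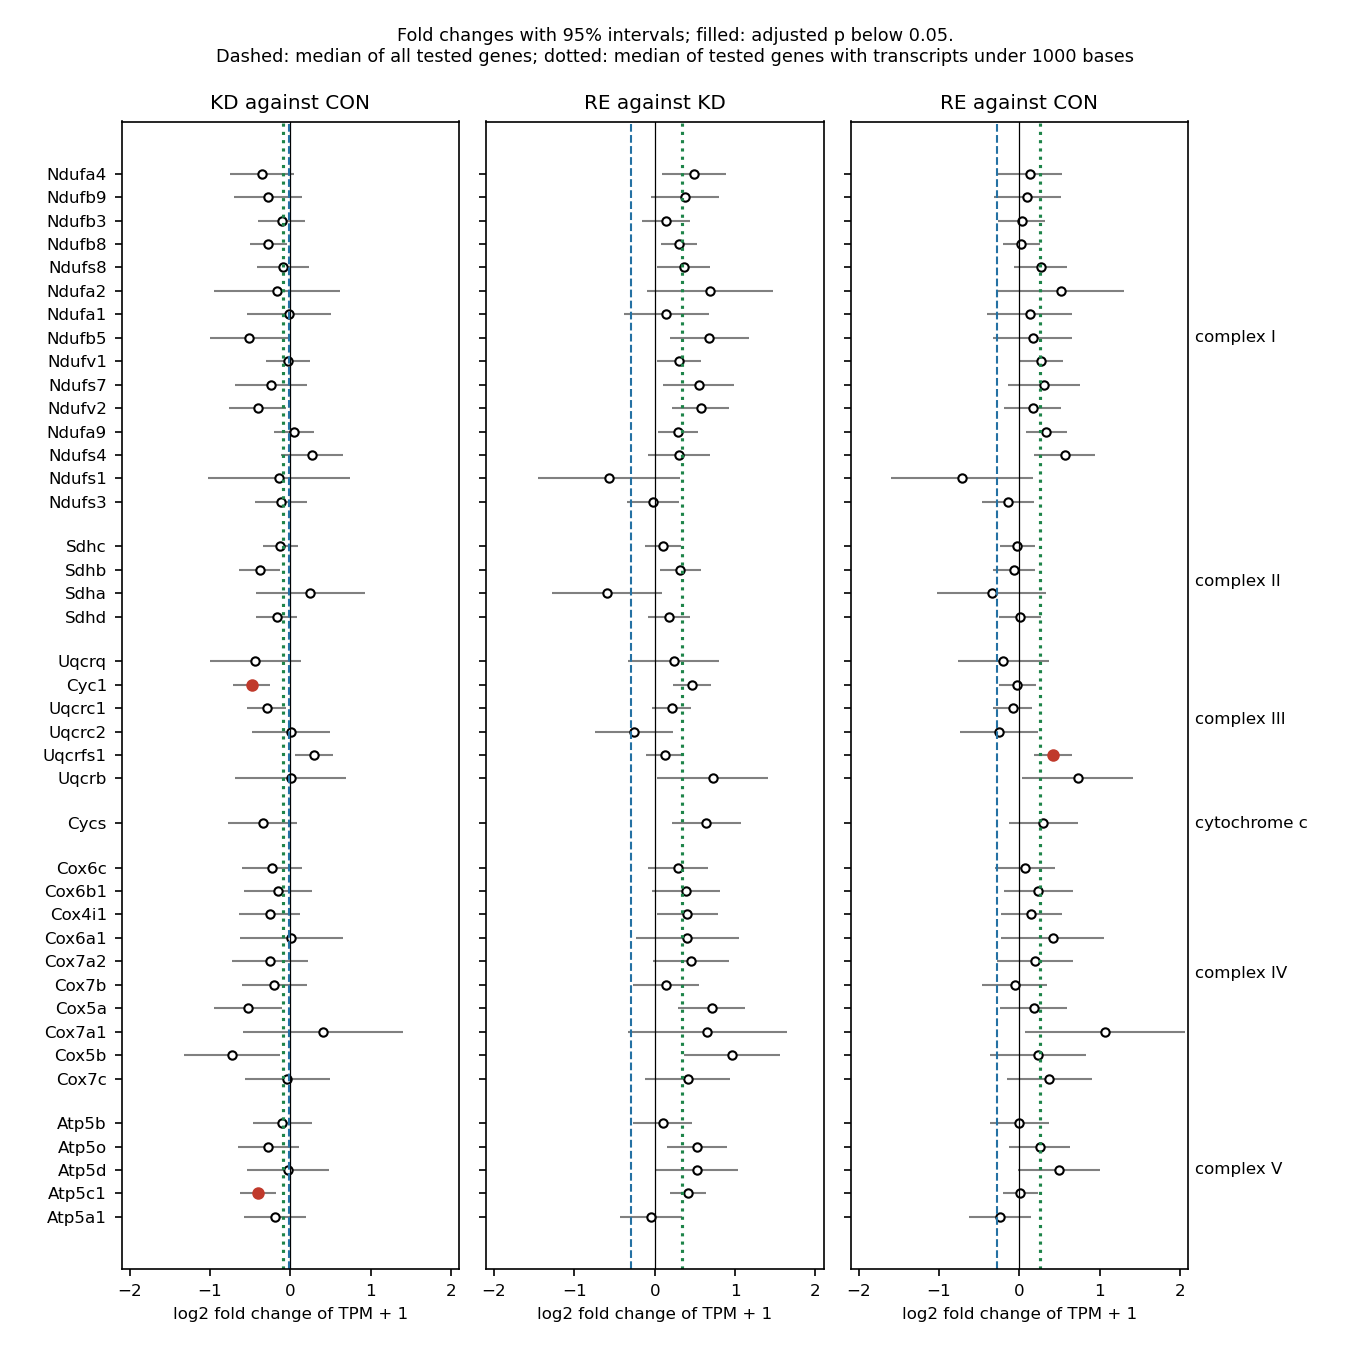
Log2 fold change of TPM + 1 for each subunit in the 3 comparisons with 95% intervals; filled points have a limma adjusted p below 0.05, the dashed line is the median of all tested genes and the dotted line that of tested genes with transcripts under 1000 bases. Filled points are Cyc1 and Atp5c1 in KD against CON and Uqcrfs1 in RE against CON.

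**Figure D5:**
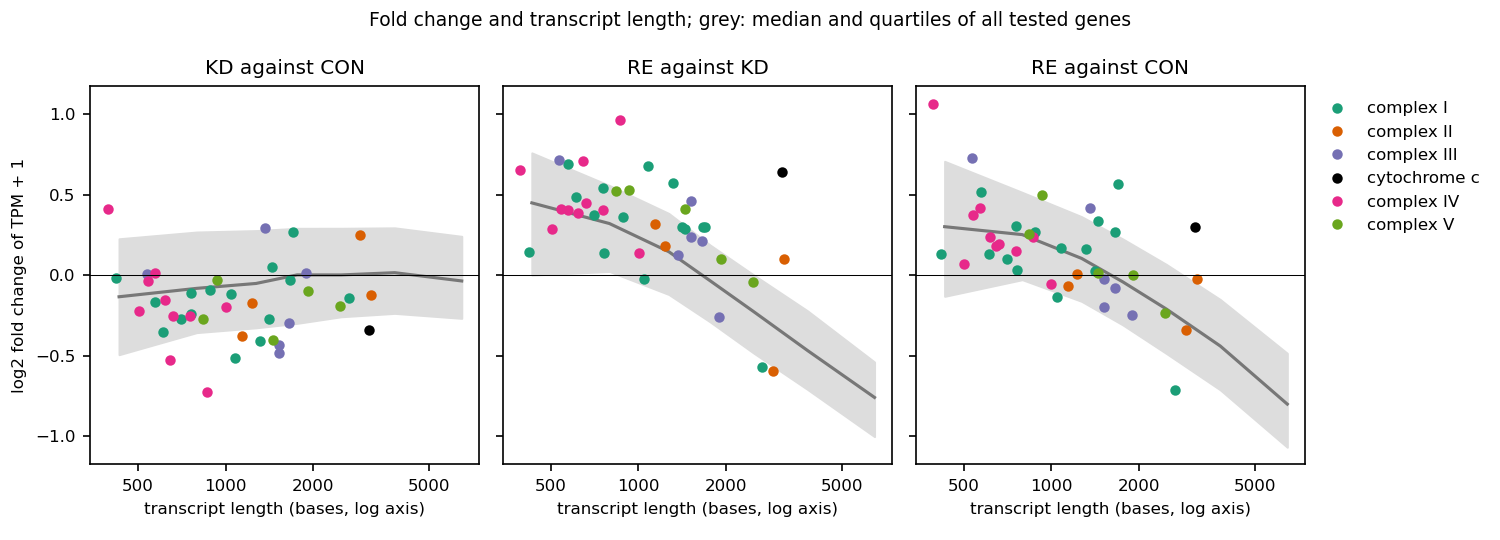
Log2 fold change of TPM + 1 against transcript length in bases (log axis) for the 41 subunits, coloured by complex, with the median and quartiles of all tested genes in length classes in grey. In both comparisons with RE the grey line falls with length, and the subunits have Spearman's rho of -0.52 and -0.51 with length.

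RE against CON, in which Uqcrfs1 rose, had a subunit median of 0.15, beside -0.27 over all tested genes and 0.25 over those under 1000 bases. By complex the medians were 0.17 for I, -0.04 for II, -0.05 for III, 0.30 for cytochrome c, 0.21 for IV and 0.01 for V. Without the 3 libraries they were 0.16, 0.04, -0.05, 0.33, 0.16 and 0.08. With the length correction they were 0.03, -0.06, -0.04, 0.64, -0.07 and 0.04, and with median-of-ratios scaling 0.47, 0.27, 0.26, 0.61, 0.51 and 0.32. The sign for complexes II, III and IV thus turned among these settings. That of complex V turned with quantile normalization, to -0.09. Ranges did not overlap for Uqcrfs1 and for Ndufa9, an accessory subunit of complex I, both higher in RE, and 0 subunits were lower, where 4.46% of tested genes were higher and 4.76% lower in that way. Ndufa9 had 152, 150.2, 155 and 149 TPM in CON and 200.2, 188, 173 and 208 in RE, a difference of 0.34 ± 0.12 (adjusted p = 0.108). With the length correction it passed (0.30, adjusted p = 0.0378), and the median of the 41 was then -0.01. Without CON 4 alone, 12 subunits rose and 2 fell (Ndufs1 and Sdha), where 10.8% of tested genes rose and 42% fell; with RE 1 and RE 3 left out as well, 6 rose and 1 fell, where 8.13% and 24% did.

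Other genes of the same pathway were taken as lists, to be read beside the 3.61% of all tested genes that fell and the 6.6% that rose in KD against CON. Of 38 other tested subunits of the same complexes, 1 fell and 0 rose in KD against CON, namely Ndufc2 of complex I. It had 238, 229, 241 and 337 TPM in CON and 123, 132, 187 and 154 in KD, a difference of -0.81 ± 0.18 (adjusted p = 0.0134). At an unadjusted p under 0.05 the list had 8 lower and 0 higher, where 10.2% and 13.6% of tested genes were, and its median was -0.22. Among 46 assembly factors 0 were called by limma (3 lower and 1 higher unadjusted; median -0.10). None of 13 carrier and outer membrane genes was called either (0 by limma, 4 lower unadjusted). Without CON 4, RE 1 and RE 3, where 25.1% of all tested genes fell and 14.2% rose, these 3 lists had 5, 10 and 6 genes lower and 3, 4 and 0 higher, Ndufc2 among the lower.

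Of 17 tricarboxylic acid cycle genes 1 fell, Mdh2, the mitochondrial malate dehydrogenase, at 734, 694, 784 and 901 TPM in CON and 457, 457, 560.4 and 537 in KD (-0.63 ± 0.12, adjusted p = 0.00659). Its RE values were 814, 654, 711 and 701, all above KD, but the difference of 0.52 ± 0.12 missed the threshold (adjusted p = 0.0694). Of 76 mitochondrial ribosomal protein genes, which serve translation of the chain's mitochondrially encoded subunits, 5 fell and 1 rose, with a median of -0.24. The largest differences among those called were -0.81 ± 0.22 for Mrpl47 (adjusted p = 0.0356), -0.80 ± 0.18 for Mrpl13 (adjusted p = 0.0133) and 0.78 ± 0.19 for Mrps6 (adjusted p = 0.0216). Mrpl12, a ribosomal protein, was the 1 gene of all these lists to pass in RE against KD, where 0.187% of tested genes rose: 276, 274, 299 and 373 TPM in CON, 160.2, 166, 244 and 194 in KD and 451, 270.3, 331 and 361 in RE, with RE above KD by 0.88 ± 0.18 (adjusted p = 0.0464). Without CON 4, RE 1 and RE 3, 8 tricarboxylic acid cycle genes fell and 0 rose in KD against CON and 21 ribosomal protein genes fell and 6 rose, Mdh2, Mrpl47, Mrpl13 and Mrps6 among them, and 0 of either list passed limma in RE against KD.

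In the main fit, with all libraries, regulators of the nuclear respiratory genes were not called: 0 of 19 tested by limma in any of the 3 comparisons. At an unadjusted p under 0.05 there were 3 lower and 0 higher in KD against CON, none in RE against KD and 5 lower in RE against CON. With CON 4, RE 1 and RE 3 left out, 11 of the 19 fell in KD against CON and 7 in RE against CON, where 25.1% and 24% of all tested genes fell, and 0 rose. Nrf1 fell in both, Tfam in the first and Gabpa in the second. With all libraries and the length correction, 2 of the 19 fell in KD against CON (Polrmt and Myc) and 0 rose, where 10.8% and 12.1% of all tested genes did. Without CON 4 and with that correction 5 fell and 1 rose, where 17% and 17.8% did. Tfam was called in neither of these 2 settings, and Nrf1 was called in the second but not in the first. The coactivator Ppargc1a (PGC-1alpha) had a mean of 0.400 TPM and was not tested. Its relative Ppargc1b had means of 2.08, 1.00 and 0.906 TPM in CON, KD and RE (KD against CON -0.62 ± 0.27, adjusted p = 0.176). The transcription factor Nrf1 had 42.9, 28.4 and 25.4 TPM (-0.49 ± 0.30, adjusted p = 0.369) and Gabpa, the DNA-binding part of GABP, 37.4, 32.7 and 19.0 TPM (0.03 ± 0.51, adjusted p = 0.986). The CON 4 values of Nrf1 and Gabpa were 20.4 and 8.95 TPM, the lowest in CON. The nuclear receptor Esrra had 28.5, 33.4 and 33.5 TPM (0.22 ± 0.16, adjusted p = 0.456). Tfam, a factor that packages mitochondrial DNA and acts in its transcription, had 44.8, 37.1 and 35.9 TPM (-0.20 ± 0.25, adjusted p = 0.722).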

How the data were processed

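RNA of 12 HL-1 libraries was sequenced, and the authors deposited 1 table of TPM values. Trim Galore 0.6.6, TopHat2 2.1.1, Cufflinks 2.2.1 and the mm10 build are named per the submitters' processing notes; how TPM was made, the annotation and the use of strand are not given in the sources used here. All columns have the same sum, so depth is unknown and no counting interval is given. The 4 columns named WT were taken as CON, whose genotype label is WT, and their numbers pair them with nothing.

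The 11774 genes whose mean was 1 TPM or more were fitted in limma 3.58.1 (R 4.3.3) on log2(TPM + 1), on which fold changes of low genes are understated. One mean per group was fitted over all 12 libraries with limma's trend option; two-sided p-values were adjusted by Benjamini-Hochberg over all tested genes in each comparison; the threshold was 0.05. The script was tested on simulated data. Transcript length is the median exonic length of a gene's GENCODE M21 transcripts matched to RefSeq (11339 of the tested genes); the length correction subtracts, in each library, a loess curve (span 0.5) of the deviation from the gene mean against length. Shared words are 50-base stretches found in transcripts of another gene.

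The members, lists and alternatives were chosen with earlier results of these data known. Named with values are the called subunits, the highest and lowest of each complex, up to 3 called genes per other list, tissue isoforms and 6 regulators; Ndufb8, Ndufs1, Sdha, Sdhb, Uqcrc1, Cox5b, Cox7a1 and Ndufa9 were added after their values were seen.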

Additional observations from a re-analysis of the deposited data

Results flagged for a closer look

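Dixon's criterion asked, in groups of 4, whether the highest or lowest library stood apart from the other 3. It flagged 18 of 144 tested groups of subunit levels, sums and Wdr62 (12.5%), 17 of them in CON 4 and 1 in RE 3. Chance flags about 1 in 20, but the groups share the same 12 libraries, so the flags are not independent. High in CON 4 were Ndufa2 (592 TPM), Ndufb3 (722), Ndufv2 (243), Uqcrq (1635), Cox6a1 (2052), Cox6b1 (2340.4), Cox6c (2521), Cox7a1 (54.7), Cox7a2 (664), Cox7b (561), Atp5d (999) and Atp5o (1062), and the complex IV sum (10556 TPM). Low in CON 4 were Sdha (95.9 TPM), Uqcrc2 (125), Atp5a1 (526) and Atp5b (2044), whose transcripts run from 1896 to 2900 bases. Sdhb in RE 3 was low at 203 TPM, beside 233 to 238 in the other RE libraries.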

How the results depend on the processing

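Of the counts and medians for the 41 subunits, the median kept its sign in KD against CON and in RE against KD under every alternative run. Subunits called lower in KD against CON (2) numbered 0 with median-of-ratios scaling or a fold of at least 1 on the log2 scale. There were 4 with quantile normalization, where 7.11% of all tested genes were lower. With the length correction there were 10 (1 higher), where 10.8% were lower and 12.1% higher. Array weights gave 16 (3 higher), where 32.5% were lower and 22.2% higher. Without CON 4, RE 1 and RE 3 there were 9 (3 higher), where 25.1% were lower and 14.2% higher. Without CON 4 with the length correction there were 8 (1 higher), where 17% were lower and 17.8% higher. Leaving out 1 library gave 0 to 3. In RE against KD (0) the counts higher were 2 with the length correction, 24 with array weights (1 lower) and 10 without CON 4 with the length correction, where 0.952%, 11.6% and 6.18% of all genes were higher; leaving out 1 library gave 0 to 13. In RE against CON (1 higher) they were 2 with quantile normalization or the length correction, 0 with the compared groups alone or the fold threshold, 13 with array weights (2 lower), 6 without the 3 libraries (1 lower) and 9 without CON 4 with the length correction (2 lower), where the shares of all genes higher were 5.71% or 8.16%, 12.2%, 8.13% and 21.1%; leaving out 1 library gave 0 to 12 higher and 0 to 2 lower. The subunit median in RE against KD was 0.69 with median-of-ratios scaling and 0.21 with the length correction, alone, without CON 4 or with the replicate block; in RE against CON it was 0.46 with median-of-ratios scaling. That scaling moved the median of all genes by 0.29 and 0.28 in these comparisons. Without CON 4 and with the length correction, Cox6c changed sign to -0.31 and Sdhc to 0.54 in RE against CON. Counting every alternative, 14, 9 and 24 of the 41 subunits took the other sign at least once in KD against CON, RE against KD and RE against CON. The cause was not tested.

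The CON columns carry no number that pairs them, so a replicate block could be fitted for RE against KD alone; it gave 6 subunits higher and 1 lower, where 2.2% and 15% of all genes were, and 0 with the length correction. After each gene's group mean was subtracted, same-numbered KD and RE libraries correlated over the tested genes at -0.55, 0.65, 0.24 and -0.25. These were not all above 0.1, so the numbers were not taken as pairs. The block nevertheless raised the share of genes lower from 0.331% (KD and RE alone) to 15%. With the depth unknown, low genes such as Cox7c cannot be given a detection limit.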
